A study of Mus musculus with 1507 samples.

Results

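The 5 genes described here encode cytoplasmic intermediate filament proteins, namely the keratins *Krt7*, *Krt8*, *Krt18* and *Krt19* and vimentin (*Vim*). They were chosen by gene name in the annotation deposited with the data, and all 5 were found among 47643 annotated genes. The cells were 5G6GR mouse ES cells, or primitive endoderm (PrE) cells made from them. 5G6GR is an EB5-derived ES line that carries a randomly inserted Gata6-GR-IRES-Puro vector, so that dexamethasone activates a GATA6 fusion protein and drives the cells toward PrE, the extraembryonic layer that lines the early blastocyst cavity. All cells, ES controls included, carried the vector and came from this single line, grown without feeder cells and with leukemia inhibitory factor. By the study's methods the ES medium held blasticidin, and the differentiation medium held dexamethasone in its place. The addition of dexamethasone and the withdrawal of blasticidin thus cannot be told apart.

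Single cells were profiled by RamDA-seq, a full-length total RNA method that primes along the RNA and not only at the poly(A) tail. A first set followed cells at 0, 12, 24, 48 and 72 h of dexamethasone (92, 91, 93, 87 and 93 cells). A further set held untreated ES cells sorted by DNA content into G1 (93 cells), S (91 cells) and G2M (93 cells). ES cells and PrE cells after 72 h of dexamethasone were sorted side by side on 4 plates (384 wells, with 40, 42, 58 and 49 ES and 56, 54, 38 and 47 PrE wells on plates E1, E2, B1 and B2), and 16 ES and 39 PrE cells were processed on the C1 microfluidic system. ES cell RNA was also made into libraries: 10 pg by SMART-Seq v4 and by RamDA-seq on or off the C1 system, 1 ng by RamDA-seq, and 1 ng, 10 ng and 1 µg after depletion of rRNA (rdRNA-seq). For paRNA-seq, 1 µg was selected by its poly(A) tails. Each time and each phase was a single plate as far as the labels tell, so plate and condition cannot be told apart in those comparisons. By the study's methods the C1 cells of both types were mixed before loading. The labels name no replicate of the times, phases or C1 cells, so these comparisons carry values and no test. The 4 plates serve as replicates, and p-values over them measure the spread between plates, since the labels do not name separate cultures.

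Keratins assemble as obligate pairs of a type I and a type II chain. KRT8 (type II) and KRT18 (type I) form the first such pair of the embryo and mark simple epithelia, including trophectoderm and extraembryonic endoderm. KRT19 (type I) and KRT7 (type II) are further keratins of simple and ductal epithelia. Vimentin is a type III protein that forms filaments on its own and is typical of mesenchymal and many undifferentiated cells. PrE gives rise to visceral endoderm, which is epithelial, and to parietal endoderm, whose migratory cells are known to hold keratin and vimentin filaments together.

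In GRCm38 (mm10), *Krt7* (ENSMUSG00000023039.16) lies on chromosome 15 at 101411043 to 101430313, *Krt8* (ENSMUSG00000049382.9) on chromosome 15 at 101996711 to 102004342 and *Krt18* (ENSMUSG00000023043.6) on chromosome 15 at 102028216 to 102032026. *Krt8* is read from the minus strand and *Krt18* from the plus strand, so that these neighbours point away from each other. *Krt19* (ENSMUSG00000020911.14) lies on chromosome 11 at 100140810 to 100148665 (minus strand), and *Vim* (ENSMUSG00000026728.9) on chromosome 2 at 13573927 to 13582826 (plus strand). No other annotated gene overlapped any of the 5. The sequences below, for the 4 of 5 genes with an entry in the RefSeq promoter set of GRCm38.p6, cover 250 bases before to 50 after the start, and are shown because GATA6 was the induced factor and Snail and Zeb proteins bind E-boxes. Capitals mark GATA words (AGATAA, the same word ending in G, which is AGATAG, or these with a first T, which are TGATAA and, ending in G, TGATAG) on either strand, the E-box CACCTG on either strand, and TATAAA on the gene's strand.
Krt8, chr15:102004293-102004592, minus strand: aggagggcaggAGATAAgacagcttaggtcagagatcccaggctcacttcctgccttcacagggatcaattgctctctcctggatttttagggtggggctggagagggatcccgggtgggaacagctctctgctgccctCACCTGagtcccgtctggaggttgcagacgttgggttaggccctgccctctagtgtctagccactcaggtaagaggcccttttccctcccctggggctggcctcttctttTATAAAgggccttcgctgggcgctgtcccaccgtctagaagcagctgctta
Krt18, chr15:102027966-102028265, plus strand: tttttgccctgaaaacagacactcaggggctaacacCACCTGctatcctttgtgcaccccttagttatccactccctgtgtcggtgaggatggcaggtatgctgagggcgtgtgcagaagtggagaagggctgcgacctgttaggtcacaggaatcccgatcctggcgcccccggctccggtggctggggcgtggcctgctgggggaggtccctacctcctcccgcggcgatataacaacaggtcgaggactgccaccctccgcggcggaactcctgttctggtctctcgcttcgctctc
Krt7, chr15:101412153-101412452, plus strand: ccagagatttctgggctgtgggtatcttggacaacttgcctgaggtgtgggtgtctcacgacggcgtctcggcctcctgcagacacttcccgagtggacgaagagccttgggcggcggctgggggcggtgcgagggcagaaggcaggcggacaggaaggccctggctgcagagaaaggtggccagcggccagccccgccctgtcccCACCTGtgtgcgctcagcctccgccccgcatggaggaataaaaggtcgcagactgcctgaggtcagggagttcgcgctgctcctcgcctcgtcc
Vim, chr2:13574061-13574360, plus strand: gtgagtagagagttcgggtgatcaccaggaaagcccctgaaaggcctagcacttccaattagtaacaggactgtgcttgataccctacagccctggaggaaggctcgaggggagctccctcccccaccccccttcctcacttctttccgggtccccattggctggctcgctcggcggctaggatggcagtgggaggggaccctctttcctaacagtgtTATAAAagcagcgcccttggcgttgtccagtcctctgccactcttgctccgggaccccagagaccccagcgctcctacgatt
A GATA word stood in the *Krt8* window alone among these 4, starting 239 bases before the RefSeq start, and 29.8% of all 32851 promoters of the set held such a word. CACCTG, present in 20.2% of promoters, was found in all 3 keratin windows (at -111 in *Krt8*, -214 in *Krt18* and -44 in *Krt7*) and not in that of *Vim*. TATAAA, present in 8.32% of promoters, stood at -32 in *Vim* and at -1 in *Krt8*. These are matches of letters and not measured binding.

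The labels held against marker genes. PrE markers (*Gata4*, *Gata6*, *Sox17*, *Sox7*, *Foxa2*, *Pdgfra* and *Dab2*) exceeded ES markers (*Pou5f1*, *Sox2*, *Nanog*, *Zfp42* and *Esrrb*) on average in 0 of 92 cells at 0 h, 63 of 91 at 12 h, 88 of 93 at 24 h, 85 of 87 at 48 h and 93 of 93 at 72 h, and in 0 of 16 ES and 39 of 39 PrE cells on C1. The time course held 19656 to 44119 detected transcripts per cell (TPM of at least 0.1). On the plates, 22 of 384 wells held 22 to 206 detected transcripts and all others at least 10616, so plate results are given with and without these wells. Of 6 fibroblast markers, *Col3a1* was at 0 in every cell at all times, mean TPM of *Col1a1* and *Col1a2* stayed at or below 0.329 and 0.0628, and that of *Pdgfrb* at or below 0.542. *Thy1* had 1.65 TPM at 0 h and 0.0121 at 72 h, and *Twist1* 0.336 and 3.02. The 6 trophectoderm markers summed to a mean TPM of 8.003 at 0 h and 8.06 at 72 h, with *Cdx2* at 0.0127 and 0.288 and *Hand1* at 0.101 and 0.00223. Within that sum *Gata3* had 0.0408 and 4.29 TPM, *Eomes* 0.544 and 1.40, *Tfap2c* 6.23 and 0.878, and *Elf5* 1.07 and 1.197. All 5 parietal endoderm markers were past a 2-fold increase at 72 h, with *Sparc* at 110 and 3324 TPM, and all 5 were higher in PrE cells on the plates. Of 5 visceral endoderm markers 3 were past the same increase, namely *Amn* (0.0585 and 6.04 TPM), *Hnf4a* (0.00269 and 6.68) and *Ttr* (0 and 1.04), while *Afp* and *Apoa1* stayed at or below 0.0730 at all times. Of all genes compared between 0 and 72 h, 13.4% were past that fold upward and 12.8% downward. On the plates 5 of 5 ES markers were lower and 6 of 7 PrE markers higher in PrE cells (7 of 7 without the wells of few transcripts), as were 2 of 4 trophectoderm (*Gata3* and *Eomes*, with *Tfap2c* lower and *Elf5* not passing), 1 of 1 fibroblast (*Twist1*) and 2 of 2 visceral endoderm markers (*Amn* and *Hnf4a*) tested. Of all genes tested on the plates, 35.1% were higher and 25.1% lower in PrE cells. Over the ES plates *Gata3*, *Eomes*, *Twist1*, *Amn* and *Hnf4a* had means of 0.593, 0.352, 0.489, 0.163 and 0.00524 TPM. The test needed a mean TPM of at least 1 in 4 of 8 plate means. These genes thus entered it only with PrE plate means, and their direction carries no support. The same held for *Sox17*, *Sox7*, *Foxa2*, *Pdgfra*, *Dab2*, *Thbd*, *Plat* and *Stra6*, and the reverse for *Sox2*. *Gata6* had a mean of 44.9 TPM at 0 h and 157.4 at 72 h, and reads of the vector and of the gene itself cannot be told apart in it. The part of these other markers in the results below was not tested.

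*Krt8*, the type II partner of the early embryonic pair, was higher after induction, in steps. Its mean TPM was 5.78 ± 6.69 (SD over 92 cells) at 0 h, 22.7 ± 16.3 at 12 h, 27.4 ± 21.6 at 24 h, 103.3 ± 78.7 at 48 h and 106.99 ± 54.5 at 72 h. At 0 h the lowest, median and highest cell held 0, 4.16 and 49.8 TPM, and at 72 h they held 20.9, 95.3 and 283 TPM. Most cells of these 2 times were apart, although the highest cell at 0 h lay above the lowest at 72 h. The increase fell into 2 steps, with ratios of 3.92 from 0 to 12 h and 3.77 from 24 to 48 h, against 1.21 from 12 to 24 h and 1.04 from 48 to 72 h. Cells at or above 100 TPM were 0 of 92 at 0 h, 1 of 93 at 24 h, 33 of 87 at 48 h and 40 of 93 at 72 h (43.01%, exact 95% interval 32.8 to 53.7%; such intervals here cover counting error only).

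*Krt18*, the type I partner, followed the same 2 steps at a lower level. Mean TPM was 1.19 ± 1.15 at 0 h, 7.56 ± 8.27 at 12 h, 7.44 ± 8.57 at 24 h, 27.1 ± 29.98 at 48 h and 26.5 ± 21.9 at 72 h. Cells with a TPM of at least 1 went from 53.3% (49 of 92) at 0 h to 90.1% (82 of 91) at 12 h and 97.8% (91 of 93) at 72 h. The median cell held 1.07 TPM at 0 h and 21.8 at 72 h, and the highest cells held 5.03 and 140 TPM. The ratio of mean *Krt8* to mean *Krt18* TPM, which is per transcript length, stayed between 3.00 (12 h) and 4.85 (0 h) over the times. It was 8.72 in G1, 6.09 in S and 6.90 in G2M cells, and 5.15 in ES and 4.58 in PrE cells on C1.

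*Krt19*, which has no type II partner of its own and can pair with KRT8 or KRT7, came late. Mean TPM was 2.51 ± 5.55 at 0 h, 1.31 ± 3.14 at 12 h, 1.14 ± 2.45 at 24 h, 2.12 ± 5.23 at 48 h and 27.1 ± 38.5 at 72 h. The median cell was at 0 from 12 to 48 h and at 13.03 TPM at 72 h, when the quartiles were 0.903 and 37.2 and the highest cell held 243 TPM. Cells at or above 10 TPM were 7 of 87 at 48 h (8.05%, exact 95% interval 3.296 to 15.9%) and 51 of 93 at 72 h (54.8%, 44.2 to 65.2%), while 22 of 93 cells at 72 h were listed at 0. The mean was 12.8-fold higher at 72 h than at 48 h, over the interval in which *Krt8* and *Krt18* means moved by ratios of 1.04 and 0.979.

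*Krt7*, the type II keratin of ductal and trophoblast epithelia, stayed low throughout. Mean TPM lay between 0.437 (12 h) and 0.853 (24 h), with 0.509 ± 0.652 at 0 h and 0.486 ± 0.444 at 72 h. A TPM of at least 1 was reached by 4 of 92 cells at 0 h, 23 of 93 at 24 h and 5 of 93 at 72 h. These levels are under the mean TPM of 1 set for a comparison, so no fold was judged for *Krt7*.

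*Vim* moved the other way, and not steadily. Mean TPM was 306 ± 146.8 at 0 h, 369 ± 282 at 12 h, 536 ± 406 at 24 h, 50.8 ± 82.4 at 48 h and 73.2 ± 114.2 at 72 h. The lowest, median and highest cells held 52.3, 292 and 830 TPM at 0 h, 8.64, 465 and 1969 at 24 h, 0, 22.2 and 496 at 48 h, and 0, 25.99 and 700 at 72 h. The mean was 10.5-fold lower at 48 h than at 24 h. The spread among cells was wider at 12 and 24 h (CV 0.763 and 0.757) than at 0 h (CV 0.480). At 72 h the cells ranged widely (CV 1.56): 7 of 93 were listed at 0, the quartiles were 4.19 and 96.9, and 23 of 93 (24.7%, exact 95% interval 16.4 to 34.8%) still held at least 100 TPM, against 88 of 92 at 0 h. In ES cells at 0 h, mean *Vim* TPM was 52.9 times that of *Krt8*, and at 72 h it was 0.684 times. It was 11.4 times in G1, 11.8 in S and 17.9 in G2M cells, and 22.9 in ES and 0.577 in PrE cells on C1.

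**Figure D1:**
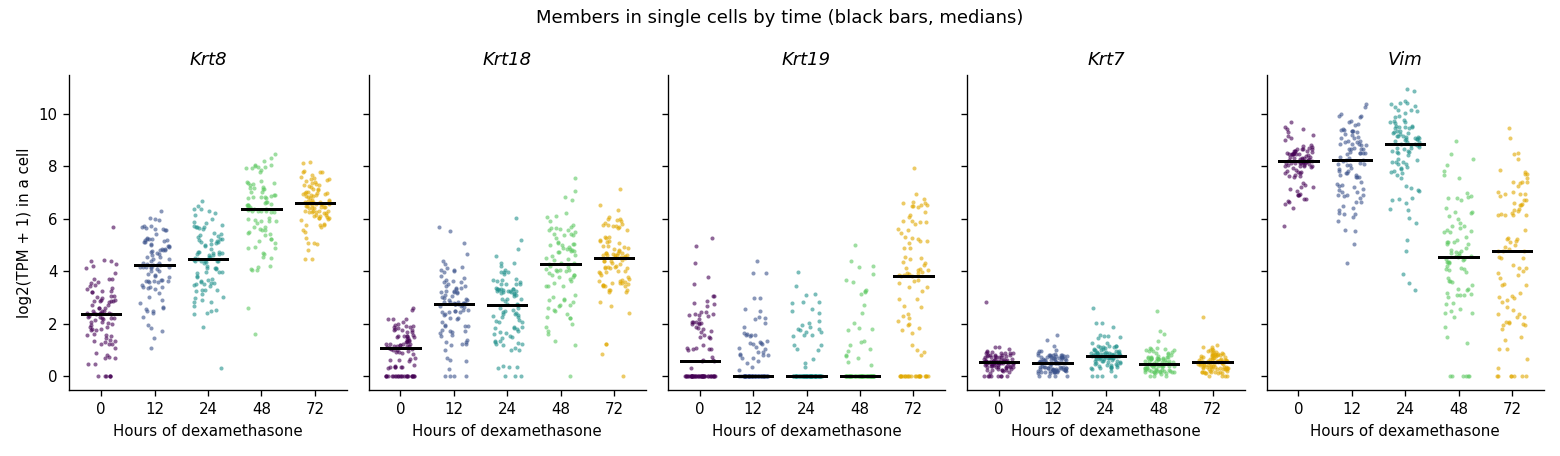
Expression of the 5 genes in single cells at 0, 12, 24, 48 and 72 h of dexamethasone. Each point is 1 cell on the log2(TPM + 1) scale and the black bar is the median of a time; *Krt8* and *Krt18* step up by 12 h and again by 48 h, *Krt19* has a median of 0 from 12 to 48 h and is higher at 72 h, *Krt7* stays near the bottom, and *Vim* drops at 48 h with cells spread down to 0.

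Between 0 and 72 h, log2 differences of mean TPM + 1 were 3.99 for *Krt8*, 3.65 for *Krt18*, 3.00 for *Krt19*, -2.05 for *Vim* and -0.02 for *Krt7*. Of all genes with a mean TPM of at least 1 at either time, 13.4% were higher by a fold of 2 or more at 72 h and 12.8% lower. Thus 3 of the 5 genes were past the fold upward, 1 downward, and 1 was too low to judge. From 24 to 48 h, when *Krt8* (log2 1.88) and *Krt18* (1.74) were higher and *Vim* (-3.37) lower, 3.69% of genes were higher and 3.36% lower by that fold. In the median cell, the log2 difference of *Vim* between 72 and 0 h was -3.44.

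The 4 plates gave the same contrast with replicates. Mean *Krt8* TPM over the ES wells of plates E1, E2, B1 and B2 was 7.39, 8.62, 8.93 and 7.24, and over the PrE wells 148.4, 126.4, 119.9 and 116.9. For *Krt18* the ES plate means were 1.97, 1.81, 1.93 and 1.57 TPM and the PrE plate means 37.7, 31.4, 35.4 and 29.6 TPM. Both keratins were thus far apart between the cell types, with no overlap of plate means. *Krt19* gave 0.459, 0.697, 1.18 and 0.873 TPM in ES cells and 36.1, 30.5, 35.1 and 37.7 TPM in PrE cells. *Vim* gave 155.9, 172.9, 166.8 and 153.4 TPM in ES cells and 64.9, 59.7, 71.9 and 46.3 TPM in PrE cells. The plate means of *Krt7* were 0.744, 0.486, 0.723 and 0.558 TPM in ES cells and 0.954, 0.447, 0.664 and 0.614 TPM in PrE cells, and the 2 types overlapped. Plate means did not overlap for 4 of the 5 genes, as for 56.8% of all genes tested.

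By limma on log2(plate mean TPM + 1), *Krt8* was 14.2-fold higher in PrE cells (log2 3.83, SE 0.105, adjusted p = 1.15e-08). *Krt18* was 12.2-fold higher (log2 3.61, SE 0.101, adjusted p = 1.29e-08) and *Krt19* 20.04-fold higher (log2 4.32, SE 0.134, adjusted p = 2.20e-08). *Vim* was 2.67-fold lower (log2 -1.42, SE 0.131, adjusted p = 1.67e-05). These folds are of TPM + 1, so they lie under the ratios of TPM for genes low in ES cells. With a pseudocount of 0.1 the log2 differences were 3.97 for *Krt8*, 4.13 for *Krt18*, 5.33 for *Krt19* and -1.43 for *Vim*. *Krt7* reached a mean TPM of 1 in 0 of 8 plate means and was not tested across genes; its difference of 0.03 had an exact two-sided permutation p of 0.8, where the smallest possible is 0.0286. *Krt19* entered the test through its 4 PrE plate means, which alone met the filter of 4 of 8 means at 1 TPM. Its ES plate means lay at 0.459 to 1.18 TPM, so its p-value gives no independent support for the direction. At an adjusted p under 0.05, 35.1% of the 16419 genes tested were higher in PrE cells and 25.1% lower, and the median log2 difference over them was 0.09. Within single plates the log2 differences were 3.61 to 4.16 for *Krt8*, 3.53 to 3.70 for *Krt18*, 4.05 to 4.67 for *Krt19* and -1.71 to -1.20 for *Vim*. Without the 22 wells of few transcripts all 4 genes passed in the same direction, with *Krt19* at 4.33 and *Vim* at -1.46.

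**Figure D2:**
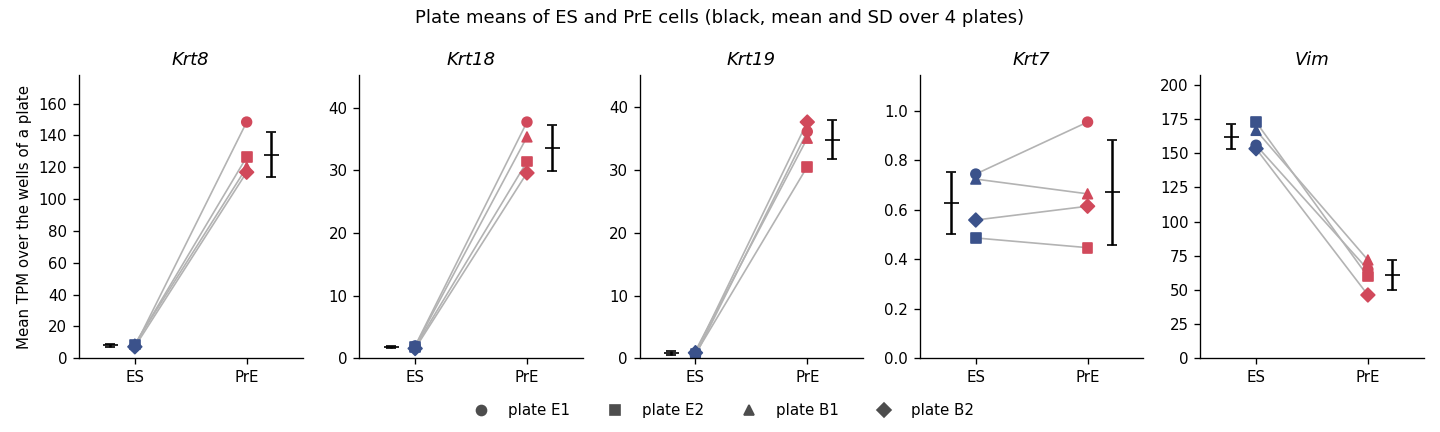
Plate means of the 5 genes in ES and PrE cells. Each symbol is the mean TPM over the wells of 1 cell type on 1 plate, grey lines join the same plate, and black bars give the mean and SD over 4 plates; axes start at 0 and differ between genes. The keratins *Krt8*, *Krt18* and *Krt19* are higher in PrE cells on every plate, *Vim* is lower on every plate, and *Krt7* overlaps.

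PrE wells differed among themselves in the same genes as the 72 h cells. Among the PrE wells left without those of few transcripts, every well held *Krt8* at 1 TPM or more, the lowest at 2.74 and the highest at 491 TPM. *Vim* ranged from 0 (19 wells) over a median of 26.5 to 498 TPM, with a CV of 1.39 against 0.594 in the ES wells left. Over all PrE wells, *Krt19* was listed at 0 in 67, had a median of 7.57 and reached 319 TPM.

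On the C1 system *Krt8*, *Krt18* and *Krt19* were again higher and *Vim* lower in PrE cells. Mean *Krt8* TPM was 18.1 ± 13.97 in 16 ES cells and 197 ± 110 in 39 PrE cells (log2 3.37), and mean *Krt18* TPM was 3.51 ± 3.97 and 42.96 ± 35.1 (log2 3.28). *Krt8* overlapped between the types only in the tails, with the highest ES cell at 57.4 TPM and the lowest PrE cell at 39.4 TPM. *Krt19* had means of 3.87 ± 3.64 and 85.03 ± 132.8 TPM (log2 4.14), but medians of 3.95 and 14.05, and 11 of 39 PrE cells held at least 100 TPM. *Vim* had means of 415 ± 237 and 113.6 ± 194.97 TPM (log2 -1.86) and medians of 342 and 37.8, and 8 of 39 PrE cells still held at least 100 TPM. *Krt7* had means of 0.485 and 0.544 TPM. Among genes with a mean TPM of at least 1 in either type, 17.7% were higher and 12.8% lower by a fold of 2 or more in PrE cells, beside 3 and 1 of the 5 genes.

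Through the ES cell cycle, *Krt8*, *Krt18* and *Vim* were high enough to compare, and none of the 3 was past a fold of 2 between G2M and G1. Across genes 1.08% were higher and 0.134% lower in G2M by that fold. Mean *Vim* TPM was 182.4 ± 107.5 in G1, 104.2 ± 66.3 in S and 212 ± 111.6 in G2M, so that S was the lowest phase, 2.04-fold under G2M. That put *Vim* just past the fold between S and G2M (log2 1.02). The share of all genes past it was not computed for that step, so the call has no background to be read against. *Krt8* had means of 16.0 ± 19.7, 8.80 ± 16.96 and 11.9 ± 13.4 TPM and medians of 9.67, 2.50 and 7.498 TPM in G1, S and G2M. *Krt18* had means of 1.83 ± 2.62, 1.45 ± 2.35 and 1.72 ± 1.61 TPM, *Krt19* stayed at or below 0.641 and *Krt7* between 0.528 and 0.690 TPM. For each gene the phases differed by less than the larger of their SDs over cells. These SDs are the spread of single cells and not the error of a mean, and no difference between phases was tested.

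ES cells of different sets did not share 1 level. By the study's methods, the plates that held both cell types were prepared with a modified RamDA-seq protocol, and the C1 cells with that of the C1 system. Differences between these sets and the times or phases cannot be told apart from protocol. Mean *Vim* TPM was 306 at 0 h, 104.2 to 212 in the phases, 162.2 over the ES plate means and 415 on C1. In order of mean *Krt8* TPM, the 0 h cells (5.78), ES plates (8.04), S (8.80), G2M (11.9), G1 (16.0) and C1 ES cells (18.1) came first. They were followed by 12 h (22.7), 24 h (27.4), 48 h (103.3), 72 h (106.99), PrE plates (127.9) and C1 PrE cells (197). Neighbours lay within the larger SD over their cells or wells throughout, and the step from 24 to 48 h exceeded the SD of the 24 h cells but not that of the 48 h cells. Such an SD is the spread of single cells or wells and not the error of a mean. Whether neighbours differ was not tested. In order of mean *Krt18* TPM, 0 h (1.19), S (1.45), G2M (1.72), ES plates (1.82), G1 (1.83) and C1 ES cells (3.51) came before 24 h (7.44), 12 h (7.56), 72 h (26.5), 48 h (27.1), PrE plates (33.5) and C1 PrE cells (42.96). In order of mean *Krt19* TPM, S, G1, G2M, ES plates, 24 h, 12 h, 48 h, 0 h and C1 ES cells lay between 0.277 and 3.87, and 72 h (27.1), PrE plates (34.9) and C1 PrE cells (85.03) followed. For both genes, too, neighbours lay within the larger SD. In order of mean *Vim* TPM, 48 h (50.8), PrE plates (60.7), 72 h (73.2), S (104.2) and C1 PrE cells (113.6) were lowest, and ES plates, G1, G2M, 0 h, 12 h, C1 ES cells and 24 h followed, each neighbour within the larger SD over cells. At 72 h the mean levels per length ran *Krt8*, *Vim*, *Krt19*, *Krt18*, *Krt7*, and those of *Krt19* and *Krt18* (27.1 and 26.5 TPM) did not differ beyond their spread over cells.

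The keratins that held most of the summed TPM of the family differed between 0 and 72 h. At 0 h, *Krt17* (mean 29.5 ± 20.3 TPM) and *Krt42* (42.3 ± 22.7 TPM), both type I keratins, held 85.02% of the summed mean TPM of 51 keratin genes, whereas *Krt8* and *Krt18* together held 8.26%. *Krt17* and *Krt42* were at 11.7 and 9.99 TPM at 12 h, 3.48 and 2.54 at 24 h, and 0.0458 and 0.0752 at 48 h. At 72 h *Krt42* was listed at 0 in all 93 cells and *Krt17* in 92 of 93. The share of *Krt8* and *Krt18* was 51.7% at 12 h, 76.6% at 24 h, 96.8% at 48 h and 80.9% at 72 h, the last beside 16.4% for *Krt19*. Summed over the family, mean TPM dipped from 84.5 at 0 h to 45.5 at 24 h and then reached 165.02 at 72 h.

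On the plates *Krt17* was lower in PrE cells (log2 -5.27, adjusted p = 9.14e-05 by limma) and *Krt42* too (log2 -3.40, adjusted p = 0.0347), but single wells of few transcripts weighed on both. *Krt17* read 183.1 TPM in ES cells of plate B2 with all wells and 18.995 without those of few transcripts, and *Krt42* read 52.5 and 0.0772 TPM in PrE cells of plate E2. Without such wells the log2 differences were -4.50 and -4.91.

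Of 61 other intermediate filament genes listed, 10 passed the filter on the plates, 3 were higher in PrE cells, 4 lower, and 3 did not pass the test (3, 5 and 2 without the wells of few transcripts); their median log2 difference was -0.21, beside 0.09 over all genes tested, of which 35.1% were higher and 25.1% lower. The higher genes were the neurofilament light chain *Nefl* (2.14 to 20.2 TPM), the lamin A gene *Lmna* (20.1 to 50.6 TPM) and synemin, *Synm* (0.571 to 1.501 TPM). Beside both keratins the lower genes were internexin, *Ina* (2.30 to 0.200 TPM), and lamin B1, *Lmnb1* (89.5 to 68.8 TPM); lamin B2, *Lmnb2*, had 20.8 and 16.3 TPM and, like *Des* and *Nes*, did not pass; it passed without the wells of few transcripts (log2 -0.72). *Synm*, *Ina*, *Des* and *Nes* are named here after their values were seen. *Synm* was under 1 TPM in ES cells, and *Ina* and *Krt17* in PrE cells. These genes entered the test only with plate means of the other type, so their direction carries no support. Without the wells of few transcripts the same held for *Krt42*, with a mean of 0.0538 TPM over the PrE plates. Over time *Lmnb1* had 105.4 TPM at 0 h and 51.95 at 72 h, *Lmnb2* 24.4 and 9.51, *Lmna* 23.2 and 27.4, and *Nefl* 1.44 and 14.5 TPM.

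**Figure D3:**
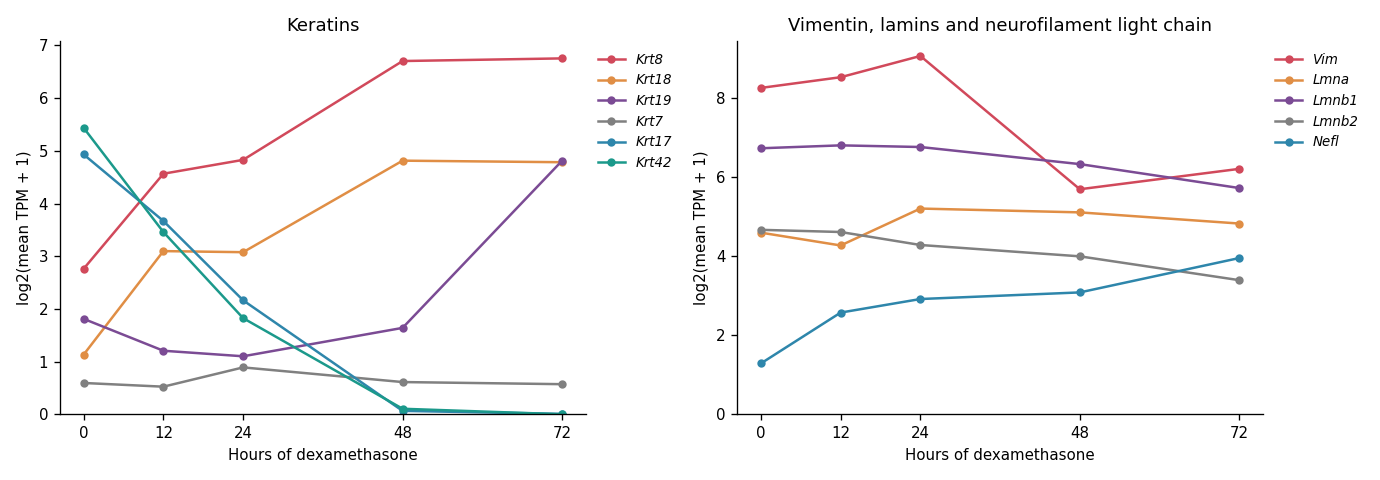
Mean TPM of intermediate filament genes over the cells of each time, as log2(mean TPM + 1). Left, keratins: *Krt17* and *Krt42* approach 0 while *Krt8* and *Krt18* are higher by 48 h and *Krt19* by 72 h. Right, *Vim* is lower from 48 h, *Lmnb1* (105.4 to 51.95 TPM) and *Lmnb2* are lower at 72 h, and *Nefl* is higher.

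Linkers tie intermediate filaments to desmosomes and to other filaments. Of 17 listed, 16 were in the annotation and 11 passed the filter on the plates, where 5 were higher in PrE cells, 2 lower and 4 did not pass the test, with a median log2 difference of 0.21, beside 35.1% higher, 25.1% lower and a median of 0.09 over all genes tested. The 4 of highest mean TPM over the times were plakoglobin, *Jup* (78.2 TPM at 0 h and 55.98 at 72 h), the spectraplakins *Macf1* (61.2 and 45.3) and *Dst* (56.6 and 28.3), and plakophilin 4, *Pkp4* (47.7 and 39.2). Of these *Dst* was lower in PrE cells on the plates (log2 -0.87, adjusted p = 9.03e-05 by limma), and the others did not pass (*Jup* -0.48, *Macf1* -0.21, *Pkp4* 0.00). Without the wells of few transcripts 6 linkers were higher and 3 lower, with *Jup* at 0.29 and *Macf1* at -0.27, both past the threshold.

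Transcription factors known to lower epithelial genes did not all move one way. *Snai1* went from 0.905 TPM at 0 h over 8.95 at 48 h to 20.6 at 72 h, *Zeb2* from 0.839 to 3.89, *Twist1* from 0.336 to 3.02, *Zeb1* from 7.76 to 2.54, and *Snai2* from 0.451 to 0.233 TPM. On the plates 4 of the 5 were tested: *Snai1* (log2 2.48), *Twist1* (1.61) and *Zeb2* (1.41) were higher in PrE cells and *Zeb1* lower (-1.34), while *Krt8*, *Krt18* and *Krt19* were higher. Of all genes tested there, 35.1% were higher and 25.1% lower. *Twist1* and *Zeb2* had means of 0.489 and 0.985 TPM over the ES plates, so both entered the test only with PrE plate means.

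Transcript models shape what a gene's TPM stands for, since the authors' values are per transcript and were summed here. *Krt8* and *Krt18* have 1 protein-coding model each in the annotation, Krt8-201 and Krt18-201. For *Vim*, the protein-coding models Vim-006 and Vim-001 held 34.8% and 11.4% of mean TPM at 0 h, and Vim-004 and Vim-002, annotated as retained introns, 43.8% and 9.41%. The protein-coding share lay between 44.9% (12 h) and 49.03% (24 h), and coding TPM was 141.7 at 0 h and 34.5 at 72 h. For *Krt19*, the protein-coding Krt19-001 held 40.9% at 0 h and 39.3% at 72 h, and the processed transcripts Krt19-002 and Krt19-003 the rest (57.7% and 2.97% at 72 h); coding TPM went from 1.03 to 10.6. For *Krt7*, Krt7-001 held 77.4 to 92.2% over the times, and Krt7-002, Krt7-003, Krt7-005 and Krt7-006 passed 5% at some time. The pseudogene *Krt8-ps* had mean TPM of at most 0.117 at any time, beside 106.99 for *Krt8* at 72 h.

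Within a time, *Krt8* and *Krt18* were correlated over cells, given as a description. Pearson's r of log2(TPM + 1) was 0.27, 0.47, 0.49, 0.79 and 0.63 at 0, 12, 24, 48 and 72 h, and Spearman's rho 0.26, 0.52, 0.46, 0.78 and 0.66, over the cells of 1 plate each that share their library preparation. In the phases r was 0.36 (G1), 0.48 (S) and 0.36 (G2M), and on C1 it was 0.51 over 16 ES cells and 0.71 over 39 PrE cells. On the plates, without the wells of few transcripts, it was 0.22 to 0.38 over ES wells and 0.22 to 0.74 over PrE wells of a plate. *Krt8* and *Krt19* gave 0.17 to 0.42 over the times, with 0.42 at 72 h. *Vim* gave 0.07 to 0.26 with *Krt8* and -0.07 to 0.22 with *Krt19* over the times. With *Krt8* it gave 0.11 in G1, -0.15 in S and -0.10 in G2M. On C1 it gave -0.32 with *Krt8* over the 16 ES cells and 0.27 over the 39 PrE cells. The *Vim* and *Krt8* values on the plates were -0.10 to 0.33 over ES wells and -0.05 to 0.27 over PrE wells. The number of detected transcripts per cell correlated with *Krt8* at -0.06 to 0.22 and with *Krt18* at -0.04 to 0.22 over the times. For *Krt19* it was -0.01 to 0.17 and for *Krt7* 0.18 to 0.44, the last at 12 h. For *Vim* it was -0.14 to 0.33, with 0.33 at both 12 and 24 h, where its spread among cells was wider than at 0 h. Its part in that spread was not tested.

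**Figure D4:**
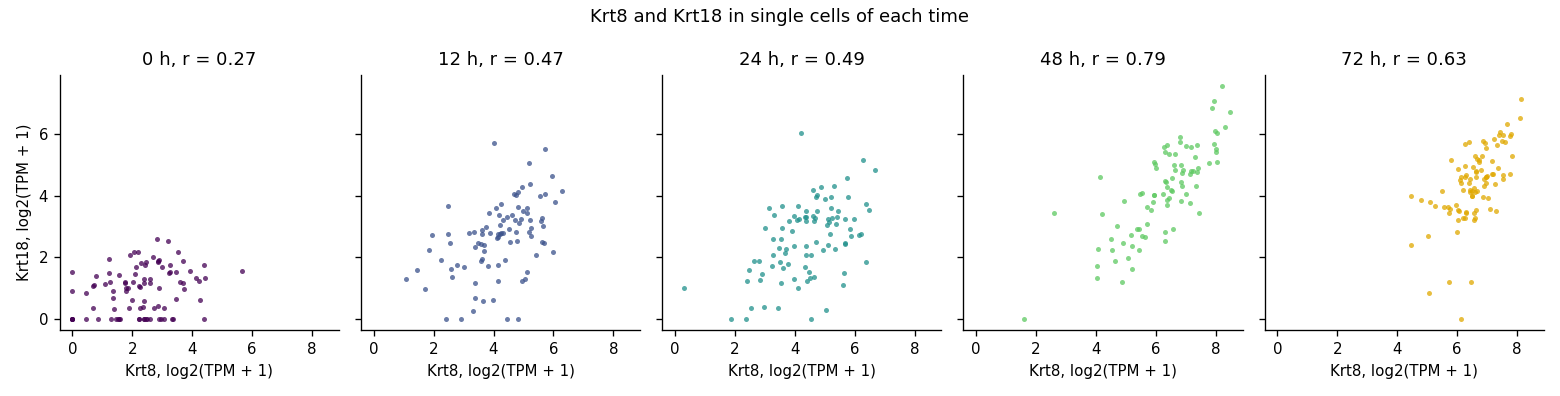
*Krt8* and *Krt18* in the single cells of each time, both axes as log2(TPM + 1), with Pearson's r over the cells of that time. The cloud moves up both axes with time and has its highest r at 48 h (0.79).

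The genes most like each member over all 456 cells of the time course were sought among 8453 genes with a mean TPM of at least 10 at any time. For *Krt8* they were *Col4a2* (r = 0.80), *Sparc* (0.80) and *Col4a1* (0.80), which encode basement membrane and matrix proteins, and for *Krt18* *Cryab* (0.72), *Col4a2* (0.71) and *Tpm4* (0.71). *Krt19* was most like *Loxl2* (0.59), *Spock1* (0.55) and *Robo2* (0.52), which also came mainly at 72 h (*Loxl2* 21.8 TPM at 48 h and 142.4 at 72 h). *Vim* was most like *Gsta4* (0.68), *Fam25c* (0.67) and *Hmga1* (0.67), and *Krt7* like *Cep57*, *Gm37086* and *Decr2* (0.37 each). Within a time r was lower for most: its medians were 0.25 to 0.26 for the genes of *Krt8*, 0.19 to 0.33 for *Krt18*, 0.01 to 0.26 for *Krt19* and -0.06 to 0.28 for *Vim*.

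Wells that held equal shares of 1 pooled G1 lysate give the spread of the method itself. *Vim* ranged from 128.5 over a median of 199 to 227 TPM in 9 lysate wells and from 25.5 over 171.7 to 534 TPM in 93 G1 cells (CV 0.174 and 0.589). *Krt8* ranged from 8.58 over 14.5 to 24.8 TPM in the lysate wells and from 0 over 9.67 to 88.7 TPM in the cells (CV 0.364 and 1.24). For both genes the CV over cells was 3.39 times that over lysate wells. *Krt18* was nearer to the method's own spread, with 0 to 5.60 TPM in lysate wells and 0 to 15.8 in cells (CV 0.920 and 1.43), and *Krt19* was at 0 in 8 of 9 lysate wells and 79 of 93 cells (CV 3.00 and 2.83). In 9 wells of 10 pg RNA the CV was 0.222 for *Vim*, 0.500 for *Krt8*, 0.891 for *Krt18*, 1.18 for *Krt19* and 0.664 for *Krt7*.

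Full plates of 10 pg RNA show how often so little RNA yields a read of each gene. With RamDA-seq, an estimated count that rounds to 1 or more was found for *Vim* in 96 of 96 wells, *Krt8* in 93, *Krt7* in 72, *Krt18* in 49 and *Krt19* in 42. C1-RamDA-seq gave 95, 94, 84, 61 and 48 of 95 wells in the same order, and SMART-Seq v4 on C1 gave 94, 90, 67, 40 and 23 of 94. Summed counts per well were 645120 to 687849, 677264 to 722762 and 939496 to 956848 in these 3 sets, each of 1 plate or chip, so no test was made. The CV of *Vim* CPM over wells was 0.166, 0.120 and 0.255.

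Between methods on the same ES RNA, *Vim* was the 1 gene of the 5 that passed the test at 10 pg. Its estimated counts were 1322, 1623 and 1540 with RamDA-seq (library totals of 5706350 to 5733650) and 2049, 1689, 1930 and 1705 with SMART-Seq v4 (8741110 to 8780980). By edgeR it was 1.97-fold higher with RamDA-seq (log2 0.98, SE 0.145, adjusted p = 0.00609), but this rests on TMM scaling, without which the difference was 0.32 (adjusted p = 0.205); the median over all genes tested was 0.12 with TMM and -0.54 without. Across genes 7.43% were higher and 6.62% lower with RamDA-seq. *Krt8* had 7.71, 7.71 and 10.1 CPM with RamDA-seq and 19.3, 19.6, 0 and 35.1 CPM with SMART-Seq v4, so that 1 SMART-Seq v4 library held no read of it (log2 -0.45, SE 1.64, adjusted p = 0.937). *Krt18* (4.56, 0.350 and 0 against 7.98, 16.6, 0 and 0 CPM) and *Krt19* (4.91, 3.68 and 1.57 against 19.04, 0, 0 and 19.7 CPM) were as uneven, and with *Krt7* did not pass (adjusted p from 0.868 to 0.954).

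At 1 µg, where 49.9% of genes passed in either direction between rdRNA-seq and paRNA-seq, *Krt19* was 1.84-fold lower with rdRNA-seq (log2 -0.88, SE 0.263, adjusted p = 0.0163 by edgeR), on 11, 8 and 11 counts against 29, 26 and 28. The call was lost without the rdRNA-seq replicate 2 (adjusted p = 0.0693) and with DESeq2 (0.139). *Krt8* had 7.46, 9.20 and 11.9 CPM against 16.1, 13.97 and 12.5 CPM (log2 -0.26, adjusted p = 0.202; -0.57 and 0.00784 without TMM scaling). *Krt18* (19, 13 and 16 against 25, 21 and 25) had a log2 difference of 0.02 with an adjusted p of 0.967, which turned to -0.30 without scaling. *Vim* had 1728, 1561 and 1727 counts against 2385, 2401 and 2392, a log2 difference of 0.06 (adjusted p = 0.145) that turned to -0.25 without scaling (adjusted p = 0.000307), where the median of all genes stood at 0.01 with TMM and -0.31 without. *Krt7* was too low to test.

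At 1 ng, 18.2% of genes were higher and 19.8% lower with RamDA-seq than with rdRNA-seq, and none of the 5 genes passed. *Krt18* had 7, 13 and 13 counts with RamDA-seq and 21, 24 and 27 with rdRNA-seq (log2 -0.95, SE 0.439, adjusted p = 0.0999 by edgeR). *Krt7* had a log2 difference of 0.90 (SE 0.416, adjusted p = 0.102), and those of *Krt8*, *Krt19* and *Vim* were -0.10, -0.46 and 0.03. With 10 ng of rdRNA-seq input the CPM of the 5 genes were 12.9 ± 2.09 for *Krt8*, 2.30 ± 0.497 for *Krt18*, 1.78 ± 1.19 for *Krt19*, 3.14 ± 0.441 for *Krt7* and 203 ± 2.99 for *Vim* (SD, n = 3).

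**Figure D5:**
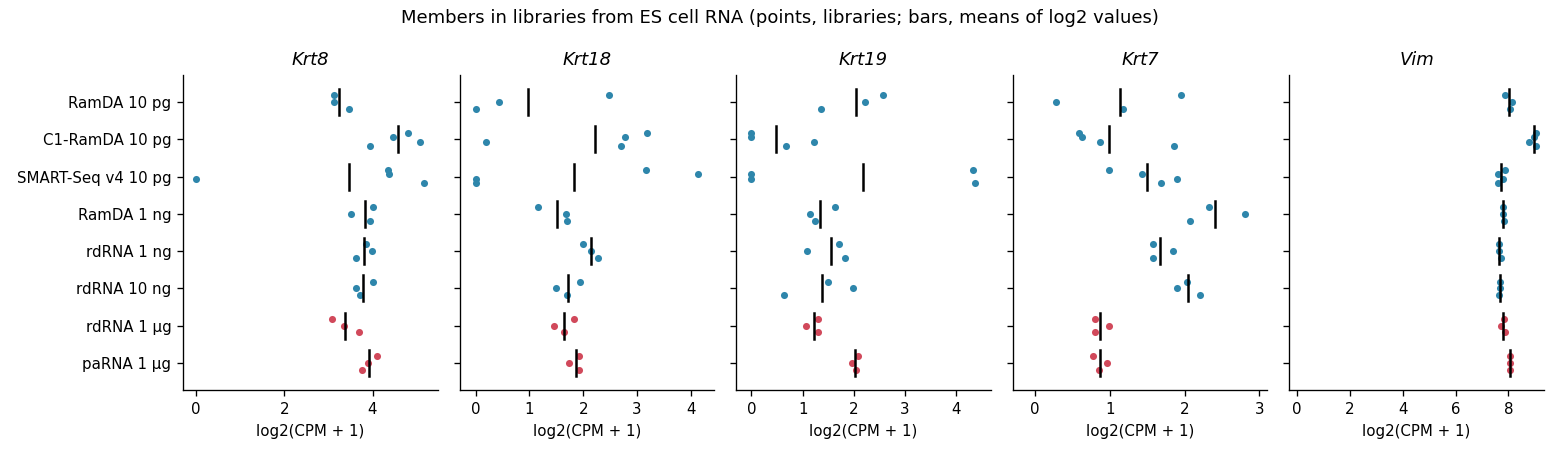
The 5 genes in libraries made from ES cell RNA by method and input, as log2(CPM + 1) of estimated counts, with no scaling beyond the library total. Points are libraries and bars are the means of the log2 values, and *Vim* is the highest of the 5 genes in every library. Among these 10 pg libraries *Krt8* falls to 0 only with SMART-Seq v4. *Krt18* falls to 0 with SMART-Seq v4 and RamDA-seq, and *Krt19* with SMART-Seq v4 and C1-RamDA-seq. In the full 10 pg sets, not shown here, each method held wells without a read of *Krt8*. From 1 ng upward no library lies at 0 for these genes.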

How the data were processed

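The members and gene lists were chosen with earlier results of these data known. Cells were profiled by RamDA-seq. The authors quantified reads on GENCODE vM9 transcripts (GRCm38) with Sailfish in unstranded mode and deposited TPM per transcript for single cells and wells. For libraries of RNA the deposited tables hold estimated counts, with ERCC spike-ins added to the reference. A table of merged gene models, of 421 of the 456 time course cells, was used only for an alternative to the comparison of 72 with 0 h. The 16 columns of other methods were not used, and 6 samples were not analysed here. TPM carry no depth.

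TPM and estimated counts were summed per gene. Times, phases and C1 cell types were compared by log2(mean TPM + 1), with a mean TPM of at least 1 in either group and a fold of 2. For the plates, limma (trend) was run on log2(plate mean TPM + 1), 4 against 4, for genes with a mean TPM of at least 1 in 4 of 8 plate means. For RNA libraries, counts were rounded, filtered by filterByExpr, scaled by TMM and tested by edgeR's quasi-likelihood test. P-values were adjusted by Benjamini-Hochberg over all genes tested, at 0.05. Intervals are exact (Clopper-Pearson, 95%) and cover counting error only. Named beside the members were transcripts with 5% of a member's TPM, filament genes with a mean of 10 TPM at any time, the 4 highest linkers, 5 repressors and 3 genes most like each member. All models were tested on simulated data. No 2 columns were identical. Each plate held ES and PrE wells by its label. Their deviations correlated at 0.099, 0.065, 0.085 and 0.040 (0.154, 0.109, 0.147 and 0.080 without wells under 10000 transcripts). Alternatives were other pseudocounts and medians, merged gene models, no filter, no scaling, DESeq2, the replicate block, left-out replicates and, chosen after seeing the data, plates without wells of few transcripts. The plates were fitted with limma 3.58.1, the RNA libraries with edgeR 4.0.16 and DESeq2 1.42.0, all in R 4.3.3. Sums, descriptions and figures were made in Python 3.11.15 with pandas 2.3.3 (numpy 2.4.6), tests by permutation with scipy 1.17.1, and plots with matplotlib 3.10.9.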

Additional observations from a re-analysis of the deposited data

Results flagged for a closer look

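Of 30 groups of 4 to 10 samples examined for a sample far from the others, 2 held one, and the nominal rate by chance is about 1 in 20. The highest of 4 C1-RamDA-seq libraries of 10 pg RNA held *Krt7* at 2.63 CPM, and the nearest at 0.828. The highest of 9 lysate wells held *Krt19* at 3.603 TPM, and the others were listed at 0. The nominal rate does not hold for such a group, since any single value above 0 is then far from the others.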

How the results depend on the processing

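On the plates all 43 recomputed values of the members kept their direction and side of the threshold, the replicate block included. They include those of *Krt19*, which met the filter through its PrE plate means, so these add no support for its direction. They also include an exact permutation test for each gene tested, with an unadjusted p of 0.0286, the smallest possible. By limma on the plates 9888 genes passed, 10471 with the block, 10948 without the wells of few transcripts and 11412 with both. Leaving out a plate gave 6902 to 7689. *Krt19* could not be tested without plate B1. At 10 pg, 1766 genes passed, 3548 with DESeq2, 993 without a filter, 334 with the replicate block (without SMART-Seq v4 replicate 4, which has no partner) and 564 to 1972 with a library left out (564, 600 and 580 without RamDA-seq replicate 1, 2 or 3). There *Krt7* turned to -0.46 without scaling, -0.22 with the block and -0.81 without RamDA-seq replicate 1 (range -0.81 to 0.70), *Krt8* to 0.92 with the block and 0.089 without SMART-Seq v4 replicate 4 (range -0.86 to 0.089), and *Krt19* to 4.86 with the block. *Vim* had 0.32 without scaling and 0.97 with the block (adjusted p = 0.107 by edgeR). RNA libraries share only a number: the deviations of same-numbered libraries correlated at -0.04 to 0.02. At 1 µg *Krt18* turned to -0.070 without a filter and -0.30 without scaling (range -0.13 to 0.12 with a library left out), and *Vim* to -0.023 and -0.25. At 1 ng *Krt8* turned to 0.014 without scaling (range -0.22 to 0.054 with a library left out). Between G2M and G1, 209 genes were past the fold, 530 with a pseudocount of 0.1 and 479 by medians. Between 72 and 0 h *Krt18* had 4.37 with a pseudocount of 0.1, and by medians on C1 *Krt19* had 1.60 and *Vim* -3.14. The cause of these changes was not tested. Few counts of *Krt7*, *Krt18* and *Krt19* limit the RNA comparisons.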
